A study of Mus musculus with 7 samples.

Results

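The translation initiation factors (Eif genes) and elongation factors (Eef genes) were followed in the surface ectoderm of mouse embryos with and without the microRNA miR-205. Rows were taken by symbol, as Eif or Eef followed by a digit, which 72 rows matched. The sex-linked pair Eif2s3x and Eif2s3y, 7 pseudogenes and 4 genes with a mean under 10 normalized counts were left out, so that 59 genes remained of 47729 in the table and 15029 tested. The 4 genes under the minimum were Eef1a2, Eif2c5, Eif4e1b and Eif4ebp3. The gene just inside the minimum was Eif3j2, with a mean of 11.01, and the one just outside was Eef1a2, with 2.32. All 59 genes passed the minimum for testing, which is the same value as that of the selection.

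Translation begins when the small ribosomal subunit, loaded by eIF2 with the initiator tRNA and held by eIF3, is brought to the capped end of an mRNA by eIF4F and scans to the start codon under the control of eIF1, eIF1A and eIF5. Elongation then needs eEF1A to deliver each aminoacyl-tRNA, the eEF1B complex to recharge eEF1A with GTP, eEF2 to move the ribosome along and eIF5A to help form difficult peptide bonds. Cells adjust the pathway by phosphorylating eIF2, by freeing eIF4E from its binding proteins, and, for mRNAs of the TOP class, which start with a run of pyrimidines, through mTORC1.

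RNA sequencing had been done on the ectoderm between eye and brain, cut by laser from frozen head sections at stage E12.5. The wild type group held 3 libraries (replicates 2, 3 and 4) and the miR-205 knockout group 4 libraries (replicates 1 to 4), each from 3 pooled embryos of stated genotype and unstated sex. The wild type replicate 1 library, removed by the submitters for captured neighbouring tissue, was not analysed here. The row of the deleted gene, Mir205, was at 0 in all 7 libraries; it lies within an exon of its host RNA, so this value does not check the genotypes. P-values measure the spread between these pools.

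The libraries held 8903523 to 12504790 recovered reads, 19318 to 20713 genes with reads, and correlated with each other at 0.894 to 0.961 on the log2 scale. Markers of the captured tissue were present in all 7 libraries: the summed normalized count of 18 surface ectoderm genes was 44055, 49201 and 54620 in the wild type libraries against 30636, 31963, 50301 and 43665 in knockout libraries 1 to 4, with all 18 genes lower in knockout on average. The summed count of 16 neuronal markers was 2794 to 13088 in wild type and 9870 to 16916 in knockout, with all 16 higher in knockout. The same sum was 91.1 to 2517 against 149 to 12954 for 12 skeletal muscle markers, and 689.5 to 987 against 905 to 2718 for 10 endothelial markers. It was 454 to 1184 against 870.0 to 1771 for 10 macrophage markers, 16363 to 18727 against 17463 to 27826 for 12 mesenchymal markers and 195689 to 773601 against 163856 to 407618 for 12 erythroid genes. It was 1223 to 3324 against 1609 to 2922 for 10 markers of Schwann cell and melanocyte precursors, and 640.5 to 3585 against 728 to 2091 for 9 lens genes. Counted by gene, 11 of 12 muscle, 10 of 10 endothelial, 10 of 10 macrophage, 8 of 12 mesenchymal, 7 of 10 Schwann cell and melanocyte and 5 of 7 tested lens markers were higher in knockout on average, and all 12 erythroid genes were lower. No marker of these lists was at 0 in every library. Knockout replicates 1 and 2 had the lowest ectoderm sums, and several of the counts below are also given without them. The part of cell composition in the differences between groups was not tested, and in such bulk samples fewer cells of a type and less RNA per cell cannot be told apart.

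Because the groups differ in miR-205, the seed matches in the members' 3′ UTRs are shown first. The mature microRNA is given from RefSeq (GRCm38.p6, chr1:193507503-193507524, minus strand), with capitals marking the seed, bases 2 to 8.
miR-205-5p: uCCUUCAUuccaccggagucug
A match to the seed, AUGAAGG, was found in the longest annotated 3′ UTR (GENCODE M21, GRCm38) of 6 of the 59 members (10.2%), beside 1678 of the 13534 tested genes with a 3′ UTR (12.4%). The median 3′ UTR was shorter in the members, 977 against 1238.5 bases. The match was followed by an A, the longer form called an 8mer, in 3 of the 6 members and in 602 of all these genes. The windows below show the matches in capitals, with the A of an 8mer included, for 5 of the 6 genes.
Eif1: gguguugcgacAUGAAGGgugaggccagcc
Eif2ak2, first match: uccuugguccuAUGAAGGugcgauagaugc
Eif2ak2, second match: ucuucccugucAUGAAGGAuuguaucaucu
Eif2s1: uauaaaagaacAUGAAGGuguuaccaaagc
Eif3c: acaacaagaauAUGAAGGAgauagguauau
Eif4e: aguguacaggcAUGAAGGuggcugaugagg

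The matched bases lie at chr11:100321900-100321906 (plus strand) for Eif1, chr17:78853288-78853294 and chr17:78852607-78852613 (minus strand) for Eif2ak2, chr12:78886675-78886681 (plus strand) for Eif2s1, chr7:126546714-126546720 (minus strand) for Eif3c and chr3:138557448-138557454 (plus strand) for Eif4e. The sixth gene was Eif1a, on chromosome 18, with an 8mer. A match is a run of letters and not a site shown to be used. Among these 6 genes, 4 had a lower mean log2 level in knockout and 2 a higher one. The largest positive difference was that of Eif2ak2, the RNA-activated eIF2 kinase PKR, whose mRNA held both a 7-base match and an 8mer: 0.34 with an SE of 0.27 (log2, limma-trend, unadjusted p = 0.227, adjusted p = 0.677 by Benjamini-Hochberg). Its normalized counts were 61.0, 115 and 87.0 in the wild type libraries against 112, 124, 90.2 and 109 in the knockout libraries, and the groups overlapped. Leaving out wild type replicate 2 gave a difference of 0.11, and leaving out wild type replicate 3 gave 0.56. It was 0.22 without knockout replicates 1 and 2. The differences of the others were 0.10 for Eif1a, -0.03 for Eif2s1, -0.11 for Eif1, -0.15 for Eif3c and -0.18 for Eif4e, with unadjusted p between 0.0650 and 0.650 in limma-trend.

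Expression was lower in knockout by a small amount in most members, chiefly in those with high counts. On the log2(normalized count + 1) scale, 45 of the 59 genes (76.3%) had a difference below 0, against 48.3% of all genes tested, and the median difference was -0.08 against 0.01. Highly expressed genes as a class also lay below 0: among tested genes with a mean of at least 1000 the share was 65.2% and the median -0.05. Among the 37 members above that level 34 lay below 0 with a median of -0.11. Thus 34 of the 45 lower members had a mean of at least 1000, as had 37 of all 59. Without knockout replicates 1 and 2 the count was 33 of 59, against 47.3% of all genes, and the median was -0.04. With the reads rescaled by TMM, another estimate of library size, the count was again 45, against 48.7% of all genes.

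No member passed an adjusted p of 0.1 in limma-trend, where 0% of all genes tested did so, nor in edgeR's quasi-likelihood test on the recovered reads, where the share of all genes was again 0%. At an unadjusted p under 0.05 in limma-trend there were 11 members (18.6%), against 9.77% of all genes. Of these, 10 were lower in knockout, against 4.34% of all genes, and 1 was higher, against 5.44%. Above a mean of 1000, 8 of the 37 members were lower at that p, beside 14% of all such genes. Leaving out wild type replicate 3 took the 11 members to 2, and leaving out knockout replicates 1 and 2 took them to 7. In DESeq2 on the recovered reads, 1 of 58 members passed an adjusted p of 0.1, against 1.52% of all genes, and in the authors' deposited table the count was also 1 of 58, against 2.83%. In that table it was lower in knockout, as were 1.4% of all genes at that threshold. The gene was Eef1b2 in both cases.

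**Figure D1:**
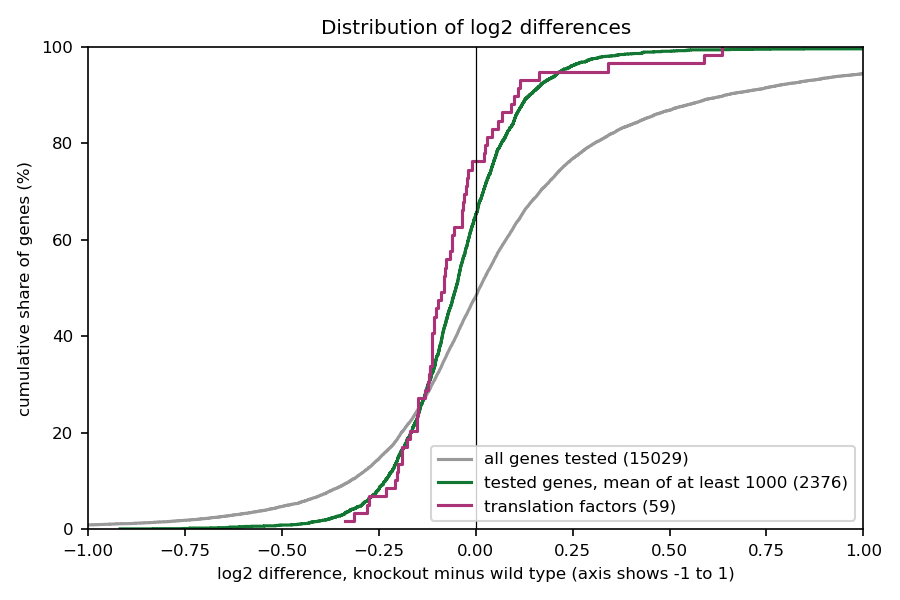
The plot shows the cumulative share of genes (vertical axis, percent) with a log2 difference, knockout minus wild type, up to the value on the horizontal axis, for all genes tested, tested genes with a mean of at least 1000 and the 59 translation factors. The curve of the translation factors crosses 0 at 76.3%, above the 65.2% of highly expressed genes and the 48.3% of all genes.

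Counted by library without overlap, 10 members had every knockout library below every wild type library, against 5.22% of all genes, and 2 had every knockout library above, against 4.7%. These shares were not computed for genes with a mean of at least 1000, which as a class lay lower in knockout. The 10 were Eef1b2, Eif1, Eif1ax, Eif2b2, Eif2d, Eif3e, Eif3g, Eif4ebp1, Eif4ebp2 and Eif5a, and the 2 were Eif2ak1 and Eif4e3. Eif2b2, Eif3e and Eif3g, and genes given below by their difference alone, lie outside the naming rule and were named after their values were seen. The spread between the 7 libraries was small for most members. The median coefficient of variation was 8.31%, against 18.1% for all genes tested, and 7.22% against 8.83% for genes with a mean of at least 1000. The mean log2 deviation over all members from their 7-library average was -0.02, 0.07 and 0.04 in the wild type libraries and -0.05, -0.06, -0.01 and 0.03 in the knockout libraries. Wild type replicate 2 lay below knockout replicates 3 and 4, so that the groups overlapped.

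**Figure D2:**
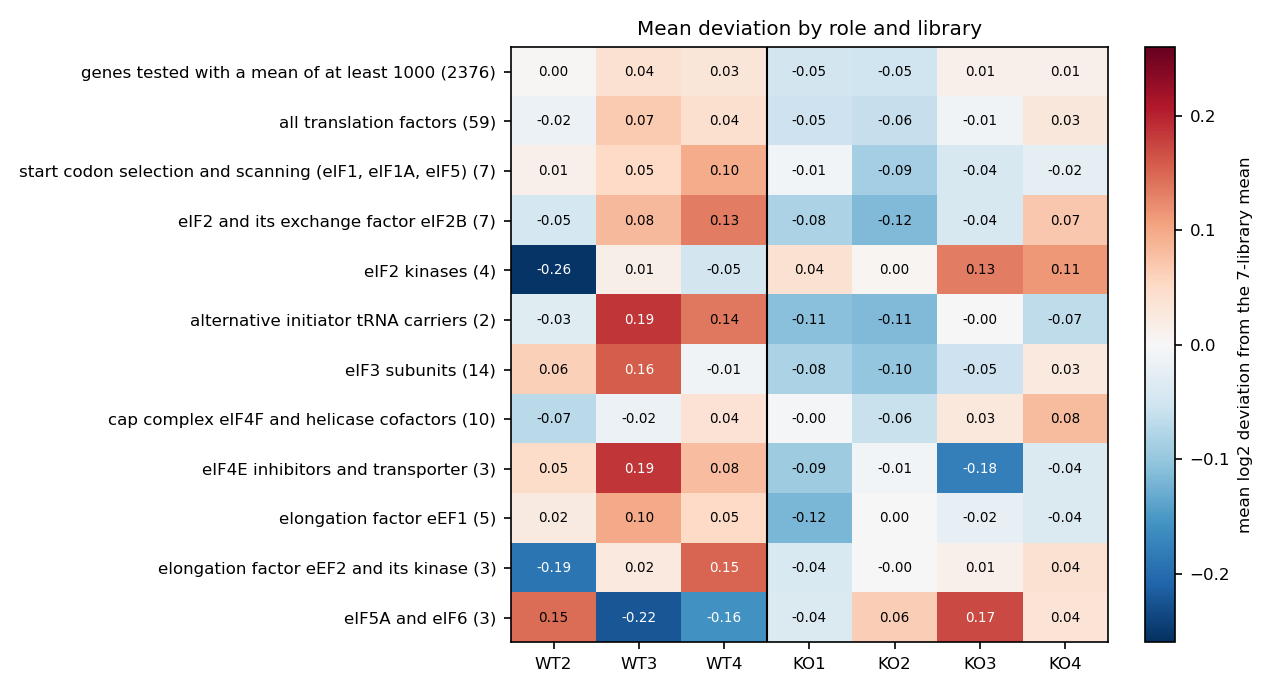
Each cell gives the mean log2 deviation from the 7-library mean for 1 group of genes (rows, with the number of genes in brackets) in 1 library (columns, WT for wild type and KO for miR-205 knockout, with the replicate number). The row of all translation factors runs from -0.06 in KO2 to 0.07 in WT3, the eIF2 kinases have their lowest value, -0.26, in WT2, and the row of highly expressed genes is lowest in KO1 and KO2.

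The members covered a wide range of levels, compared here as normalized counts per kilobase of the longest annotated transcript with a RefSeq match, so that a gene read mainly from a shorter transcript is understated. Eef1a1, which encodes eEF1A, had the highest level of the 59, at 26527 per kilobase, followed by Eif5a with 10345, Eif1 with 5817, the helicase gene Eif4a1 with 4479 and Eef2 with 4023. By the shortest such transcript instead, Eif4g2 had 5382 and Eif3k 4533, both above Eif4a1 and Eef2. The lowest were Eif3j2 with 4.63, Eif2ak2 with 23.1 and Eif2ak3 with 26.5. By role, the median level per kilobase was highest for the eEF1 subunits, 2193, and was 1288 for the eIF3 subunits, 578 for the scanning factors, 535 for eIF4F and its cofactors, 507 for eIF2 and eIF2B and 33.3 for the eIF2 kinases. Counts of Eef1a1, Eif4a1, Eif5a, Eif1 and Eif1a may be affected by near-identical processed pseudogenes. The left-out copy Eif4a-ps4 had a mean of 289 normalized counts.

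**Figure D3:**
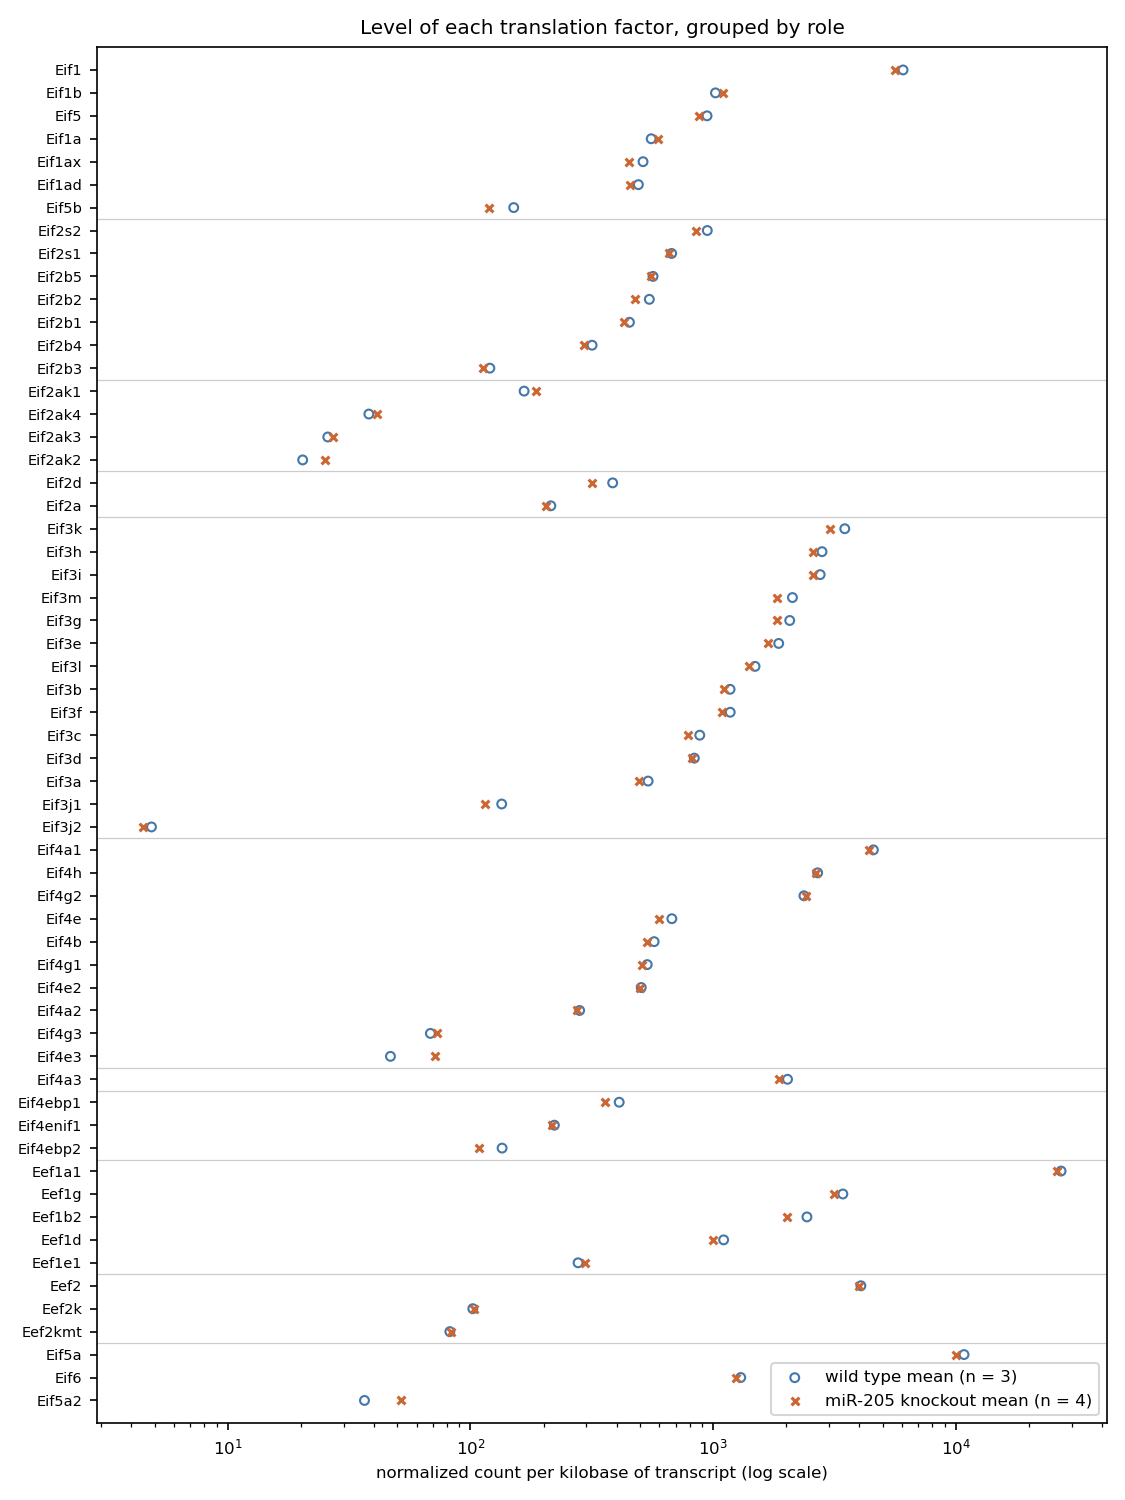
The normalized count per kilobase (horizontal axis, log scale) is shown for each translation factor, ordered by role and separated by grey lines, with open circles for the wild type mean (n = 3) and crosses for the miR-205 knockout mean (n = 4). Levels run from 4.63 for Eif3j2 to 26527 for Eef1a1, and both marks of most genes lie close together at this scale.

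Among the genes grouped as factors that select the start codon and join the subunits, 5 of 7 had a lower mean log2 level in knockout. Their median difference was -0.11, and 4 of 7 were lower without knockout replicates 1 and 2. The 7 include Eif1ad, placed there by symbol rather than by a known part in these steps, with a difference of -0.12 (SE 0.10). Eif5b, which encodes the GTPase that joins the ribosomal subunits, had normalized counts of 1033, 1131 and 1362 in the wild type libraries against 1082, 857, 887 and 887 in the knockout libraries. Knockout replicate 1 stood above the other 3 knockout libraries and inside the wild type range. The means were 1175 ± 169 (SD, n = 3) and 928 ± 103 (SD, n = 4), a log2 difference of -0.34 (SE 0.12; limma-trend adjusted p = 0.446 by Benjamini-Hochberg). Of the annotated exon bases of Eif5b, 16.8% overlap Rev1, a polymerase gene on the opposite strand with 109 to 249 normalized counts, and whether reads were counted by strand is not stated in the labels or notes. Eif1ax, X-linked and encoding eIF1A, had 2662, 2760 and 2556 normalized counts in the wild type libraries against 2483, 2181, 2283 and 2388 in the knockout libraries. All knockout libraries lay below all wild type libraries, with means of 2659 ± 102 and 2334 ± 131 and a difference of -0.19 (SE 0.07; limma-trend adjusted p = 0.448). Its autosomal counterpart Eif1a had 1583, 1490 and 1702 against 1627, 1699, 1740 and 1750, with overlap. The log2 ratio of Eif1a to Eif1ax within a library was -0.74 ± 0.15 in wild type against -0.45 ± 0.11 in knockout (exact two-sided permutation p = 0.114), where the smallest p that 3 against 4 libraries allow is 0.0571. The left-out Y-linked gene Eif2s3y, expressed in male embryos alone, had 149, 95.4 and 205 normalized counts in the wild type libraries against 157, 213, 58.3 and 60.4 in the knockout libraries. Its level differed more than 2-fold within each group, and the part of pool sex in the Eif1ax values was not tested.

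Eif1, the scanning factor that keeps start codon choice strict, was the third most abundant member per kilobase. It had 7968, 7887 and 8189 normalized counts in the wild type libraries against 7250, 7223, 7780 and 7530 in the knockout libraries. The groups did not overlap, but the difference was small, -0.11 (SE 0.05; limma-trend adjusted p = 0.541). Its paralogue Eif1b had 1147, 999 and 1028 against 1207, 1215, 1079 and 1063, with overlap, and the log2 ratio of Eif1 to Eif1b was 2.92 ± 0.11 in wild type against 2.71 ± 0.15 in knockout (exact permutation p = 0.171).

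All 7 members for eIF2 and eIF2B had a lower mean log2 level in knockout, with a median difference of -0.10. These are the GTPase that carries the initiator tRNA and its exchange factor. Without knockout replicates 1 and 2, 3 of the 7 were lower and the median was 0.01. Eif2s2, the gene of the beta subunit, was the one with an unadjusted p under 0.05. Its normalized counts were 2273, 2434 and 2507 in the wild type libraries against 2290, 2156, 2113 and 2101 in the knockout libraries. Wild type replicate 2 lay just below knockout replicate 1, and the others were separate. The means were 2405 ± 120 and 2165 ± 86.7, a difference of -0.15 (SE 0.07; limma-trend adjusted p = 0.507). The other 6 differences in this group ran from -0.19, for Eif2b2, to -0.03, for Eif2b5. Eif2s3x, the gene of a further eIF2 subunit, was left out by the selection. Its normalized counts were 1864, 2212 and 1790 in the wild type libraries against 1830, 1749, 2479 and 2578 in the knockout libraries. The groups overlapped, and the highest values were those of knockout replicates 3 and 4.

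The 4 eIF2 kinases stood on the other side, each with a higher mean log2 level in knockout, also without knockout replicates 1 and 2. Their median difference was 0.14, and none reached an unadjusted p under 0.05 in limma-trend. Eif2ak1, the haem-regulated kinase HRI, had 723, 715 and 720 normalized counts in the wild type libraries against 781, 763, 819 and 863 in the knockout libraries. The wild type libraries were nearly equal and all knockout libraries lay above them, with means of 719 ± 3.73 and 807 ± 44.4. The difference was 0.16 (SE 0.09; limma-trend adjusted p = 0.553). The 12 erythroid genes, markers of the cells HRI is known for, had a median difference of -0.65, and their part in the value of Eif2ak1 was not tested. Eif2ak4, the amino acid sensor GCN2, had 179, 187 and 230.1 against 185, 206, 263 and 209, with overlap. The log2 ratio of Eif2ak1 to Eif2ak4 was 1.86 ± 0.19 in wild type against 1.91 ± 0.20 in knockout (exact permutation p = 0.743). Phosphorylation of eIF2 was not measured.

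Genes that reverse eIF2 phosphorylation or respond to it gave counts in both directions. Of 24 tested genes for the eIF2 phosphatase and ATF4 targets, 9 were lower and 15 higher in knockout, with 1 in each direction at an unadjusted p under 0.05 and none past the adjusted threshold in limma-trend. Without knockout replicates 1 and 2 the counts were 11 and 13. Ppp1r15b, which encodes a subunit that directs the phosphatase to eIF2, had 878, 773 and 949 normalized counts in the wild type libraries against 1203, 1133, 1053 and 1007 in the knockout libraries, without overlap. Its difference was 0.34 (SE 0.10; limma-trend adjusted p = 0.371), and its adjusted p was 0.161 in DESeq2 and 0.0822 in the authors' deposited table. Ddit3, the stress transcription factor CHOP, had 126, 113 and 115 against 85.7, 95.6, 72.5 and 83.1, also without overlap but lower in knockout, with a difference of -0.49 (SE 0.21; limma-trend adjusted p = 0.498).

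Eif2d, one of the 2 factors that can bring initiator tRNA to the ribosome without eIF2, had 773, 889 and 828 normalized counts in the wild type libraries against 618, 643, 756 and 719 in the knockout libraries. The groups did not overlap, although knockout replicate 3 came close to wild type replicate 2. The means were 830 ± 58.2 and 684 ± 64.3, a difference of -0.28 (SE 0.10; limma-trend adjusted p = 0.448), which was -0.17 without knockout replicates 1 and 2. The other factor, Eif2a, differed by -0.06 (SE 0.11).

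Among the 14 subunits of eIF3, the scaffold that holds the small subunit ready, 13 had a lower mean log2 level in knockout, with a median difference of -0.13 and a lowest value of -0.23 for Eif3j1. Without knockout replicates 1 and 2, 11 of the 14 were lower and the median was -0.12. The exception in the full set was Eif3j2, at 3.74 to 17.1 normalized counts per library the weakest member, and its difference was below 0 in edgeR and DESeq2. Eif3k had 3170, 3366 and 2975 normalized counts in the wild type libraries against 2573, 2992, 2751 and 2701 in the knockout libraries. Knockout replicate 2 lay above wild type replicate 4, and the other libraries were separate. The difference was -0.20 (SE 0.07; limma-trend adjusted p = 0.448). Eif3m had 2493, 2830 and 2847 normalized counts in the wild type libraries against 2270, 2197, 2427 and 2529 in the knockout libraries. Here wild type replicate 2 fell inside the knockout range, and the difference was -0.21 (SE 0.08; limma-trend adjusted p = 0.449). Eif3h, the subunit gene with the highest mean count before correction for length, had 3658, 3947 and 3311 against 3035, 3770, 3239 and 3256, with overlap and a difference of -0.13 (SE 0.09; adjusted p = 0.637). The mean deviation of the 14 subunits was 0.06, 0.16 and -0.01 in the wild type libraries against -0.08, -0.10, -0.05 and 0.03 in the knockout libraries, with the lowest values in the libraries with the lowest ectoderm sums.

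**Figure D4:**
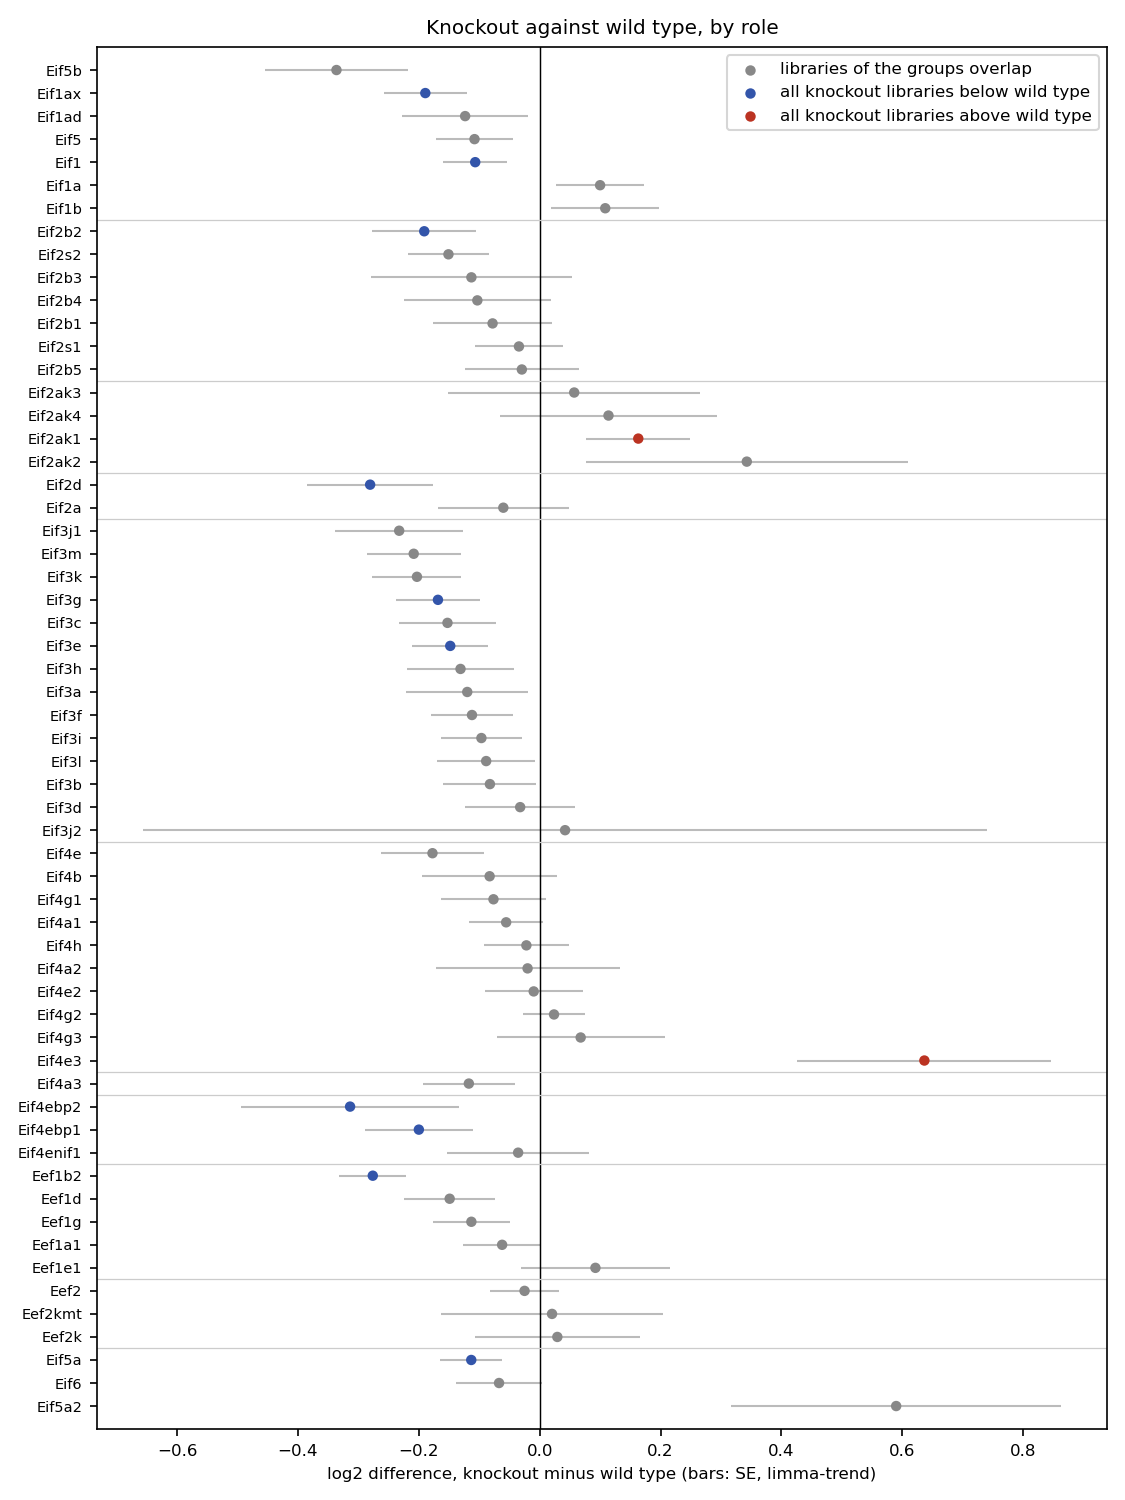
Points give the log2 difference, knockout minus wild type, of each of the 59 translation factors, with the standard error from limma-trend as bars, ordered by role between grey lines. All 7 members of eIF2 and eIF2B, which leave out Eif2s3x, and 13 of 14 eIF3 genes lie below 0. All 4 eIF2 kinases lie above 0, and the largest positive differences are those of Eif4e3 (0.64) and Eif5a2 (0.59).

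The cap-binding complex had no common direction, with 7 of 10 genes lower, 3 higher and a median difference of -0.02, which became 3 lower and 7 higher without knockout replicates 1 and 2. Eif4e3 encodes a divergent relative of the cap-binding protein eIF4E. It had 103, 98.0 and 152 normalized counts in the wild type libraries against 178, 159, 193 and 191 in the knockout libraries. All knockout libraries lay above all wild type libraries, though wild type replicate 4 came close to knockout replicate 2. The means were 118 ± 30.2 and 180.3 ± 15.3, a difference of 0.64 (SE 0.21; limma-trend adjusted p = 0.435), and this was the single member higher in knockout at an unadjusted p under 0.05. Of its exon bases, 14.8% overlap Gm20696, an annotated gene on the same strand with 11.5 to 48.8 normalized counts. Eif4e itself, which binds the cap and limits initiation, had 3387, 3748 and 2984 against 3192, 2897, 2794 and 3011, with overlap and a difference of -0.18 (SE 0.09; limma-trend adjusted p = 0.536), which was -0.10 without wild type replicate 3.

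The log2 ratio of Eif4e to Eif4e3 was 5.03, 5.24 and 4.28 in the wild type libraries against 4.15, 4.18, 3.85 and 3.97 in the knockout libraries. The groups were separate, with a difference of -0.81, and the exact two-sided permutation p was 0.0571, the smallest this design allows. Over the 9 paralogue ratios compared, the Benjamini-Hochberg value of this p was 0.257. Eif4e2, another relative of eIF4E linked to repression of translation, had 1724, 1903 and 1640 against 1752, 1701, 1886 and 1632, and its ratio to Eif4e overlapped between groups (exact permutation p = 0.171).

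The scaffold and helicase genes of eIF4F had differences near 0. Eif4g2, which encodes DAP5, a relative of eIF4G that does not bind eIF4E, had 19230, 19715 and 17824 normalized counts in the wild type libraries against 19465, 19008, 18746 and 19669 in the knockout libraries. Eif4g1, the main scaffold, had 2709, 2925 and 3105 against 2688, 2542, 2682 and 3157, and Eif4g3, its relative, had 557, 560 and 552 against 571, 476, 579 and 733. The helicase gene Eif4a1 had 8317, 7916 and 8115 against 7855, 7969, 8276 and 7175, and Eif4a2, its paralogue, had 754, 607 and 927 against 651, 860, 686 and 786. All of these groups overlapped and their differences lay between -0.08 and 0.07, with signs for Eif4g1, Eif4g2, Eif4g3 and Eif4a2 that depended on the libraries kept. The coefficient of variation of Eif4g2 was 3.46%, the lowest of the 59. The log2 ratios of Eif4g1 to Eif4g3 and Eif4a1 to Eif4a2 differed by -0.14 and -0.04 (exact permutation p = 0.171 and 0.914). Eif4a3, the helicase of the exon junction complex, had 3088, 3065 and 3017 against 2555, 2691, 3044 and 3012, with a difference of -0.12 (SE 0.08; adjusted p = 0.621). Its 2 low values were knockout replicates 1 and 2.

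The 3 genes that restrain or carry eIF4E were lower on average, and 2 of 3 without knockout replicates 1 and 2, where Eif4enif1 was higher. Eif4ebp1, the mTORC1-regulated eIF4E-binding protein, had 842, 843 and 771 normalized counts in the wild type libraries against 713, 766, 683 and 689 in the knockout libraries. The groups did not overlap, although wild type replicate 4 and knockout replicate 2 nearly met, and the difference was -0.20 (SE 0.09; limma-trend adjusted p = 0.507). Eif4ebp2, its paralogue, had 181, 218 and 177 against 166, 174, 134 and 144, again separate by a narrow margin, with a difference of -0.31 (SE 0.18; adjusted p = 0.575). The log2 ratio of the 2 genes differed by 0.11 (exact permutation p = 0.286). Eif4enif1, which carries eIF4E into the nucleus, had 749, 825 and 893 against 719, 765, 774 and 964, with overlap. A list of 14 genes held mTORC1 subunits, activators such as Rheb, inhibitors such as Tsc1 and Tsc2, and kinases of translation factors. Of these, 4 were lower and 10 higher (7 and 7 without knockout replicates 1 and 2), with 1 in each direction at an unadjusted p under 0.05. The count pools genes of opposite effect on mTORC1. Rheb, the GTPase that activates mTORC1, had mean normalized counts of 1297 ± 94.6 and 1470 ± 47.9, and Mknk2, a kinase of eIF4E, had 1642 ± 51.0 and 1453 ± 102, with adjusted p of 0.483 and 0.497 in limma-trend.

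In the elongation machinery, the eEF1B subunit gene Eef1b2 had the smallest p of the 59, and it was the one member that fell past the adjusted threshold in DESeq2. Eef1b2 lies at chr1:63176825-63180486 on the plus strand (GRCm38) and encodes the alpha subunit, which exchanges GDP for GTP on eEF1A. Its normalized counts were 4637, 4893 and 4638 in the wild type libraries against 3891, 3938, 3979 and 3789 in the knockout libraries. The 4 knockout libraries lay close together and below the 3 wild type libraries, knockout replicates 3 and 4 included. The means were 4723 ± 147 (SD, n = 3) and 3899 ± 81.8 (SD, n = 4), a log2 difference of -0.28 (SE 0.06). In limma-trend its p was 0.000560 and its adjusted p 0.312, while in DESeq2 on the recovered reads the adjusted p was 0.00154 and in the authors' deposited table it was 7.34e-05, with a log2 fold change of -0.28. Across the settings tried the difference stayed between -0.29 and -0.25, and the adjusted p ran from 0.00154 to 0.708. The overlap of its exons with other annotated genes, mostly a small RNA gene with 0 reads, was 7.31% of its bases.

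The partners of Eef1b2 had smaller differences. Eef1d and Eef1g, the other eEF1B subunits, differed by -0.15 (SE 0.07) and -0.11 (SE 0.06), and Eef1a1 by -0.06 (SE 0.06). Eef1a1 had 46233, 50410 and 49525 normalized counts in the wild type libraries against 45166, 51076, 47986 and 42726 in the knockout libraries, with overlap and an adjusted p of 0.762 in limma-trend. Eef1e1, which encodes a part of the tRNA synthetase complex rather than an elongation factor, was the one gene of the 5 with a positive difference, 0.09 (SE 0.12).

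Eef2, the gene of the translocase, had a difference near 0. It had 12000.0, 12501 and 13152 normalized counts in the wild type libraries against 11811, 13081, 12495 and 11957 in the knockout libraries, a difference of -0.03 (SE 0.06; limma-trend adjusted p = 0.902). Its kinase Eef2k and its methyltransferase Eef2kmt differed by 0.03 (SE 0.14) and 0.02 (SE 0.18).

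The 2 genes for eIF5A had differences of opposite sign. Eif5a, which encodes the general form, had 15299, 16268 and 15049 normalized counts in the wild type libraries against 14663, 13749, 14417 and 14620 in the knockout libraries. The groups did not overlap, and the difference was -0.11 (SE 0.05; limma-trend adjusted p = 0.513). Eif5a2, a weakly expressed paralogue, had 284, 121 and 146 against 215, 270.4, 300 and 256. Wild type replicate 2 lay within the knockout range, and the other wild type libraries lay below every knockout library, with a difference of 0.59 (SE 0.27; limma-trend adjusted p = 0.518). It was 0.95 without wild type replicate 2 and 0.34 without wild type replicate 3. The neuronal marker sum was likewise highest among wild type libraries in replicate 2, at 13088 against 2794 and 6356, and was 12452, 16916, 14339 and 9870 in knockout. Whether Eif5a2 came from captured neurons was not tested. The log2 ratio of Eif5a to Eif5a2 was 6.49 ± 0.68 in wild type against 5.79 ± 0.22 in knockout (exact permutation p = 0.171), and the difference of -0.70 became -1.08 and -0.42 without those same libraries. Of 9 genes that make the modified residues hypusine and diphthamide on eIF5A and eEF2, 3 were lower and 6 higher, and none reached an unadjusted p under 0.05. The smallest p were those of Dhps, the first enzyme of hypusine synthesis, with mean normalized counts of 333 ± 28.4 and 406 ± 41.6, and of Dph7, an enzyme of diphthamide synthesis, with 295 ± 16.4 and 352 ± 48.9.

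**Figure D5:**
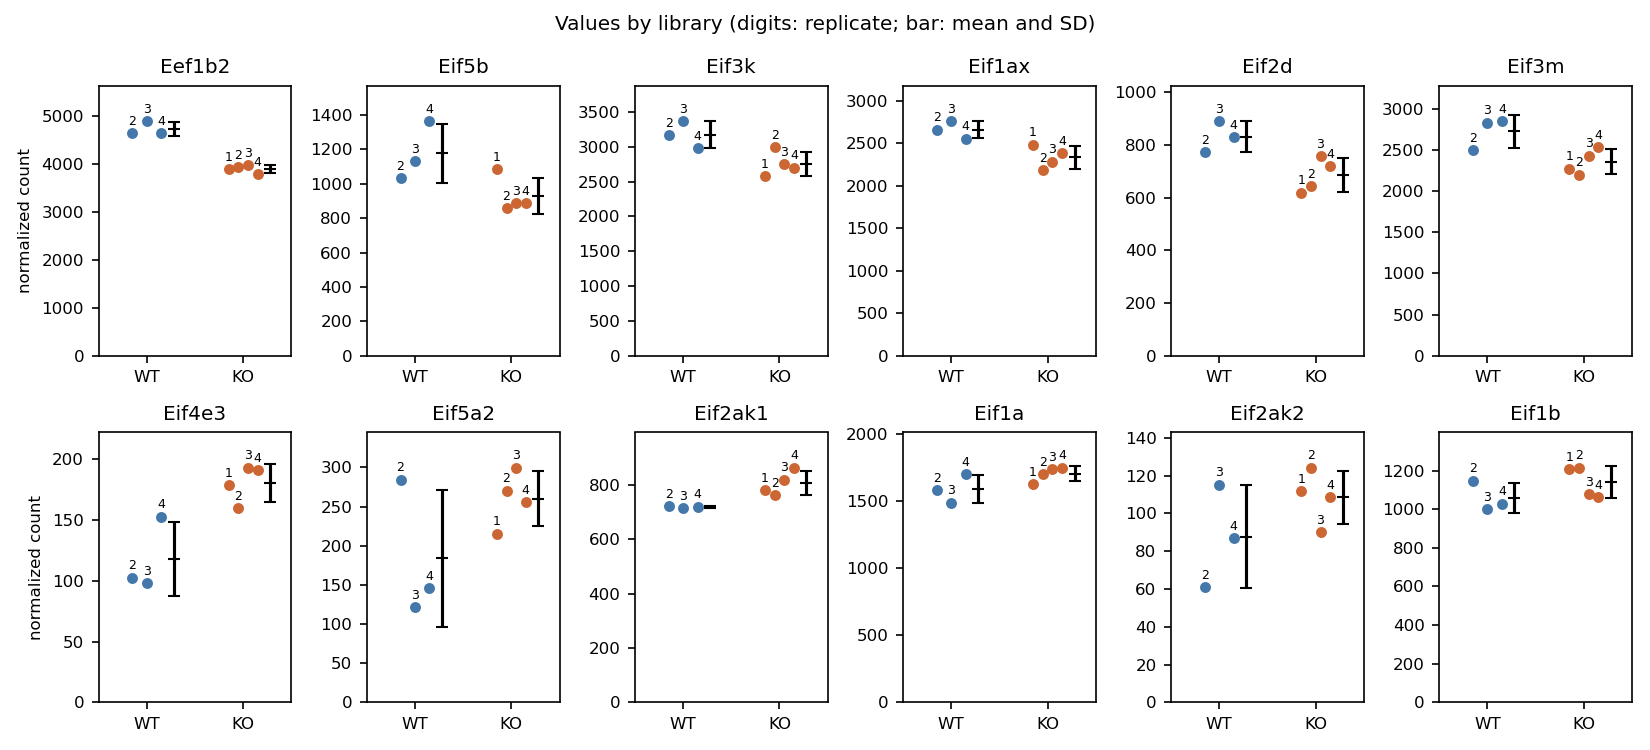
Normalized counts (vertical axes, each starting at 0) of the 6 translation factors with the smallest p in each direction, lower in knockout in the top row and higher in the bottom row, are shown for wild type (WT) and miR-205 knockout (KO) libraries. Digits are replicate numbers and bars the mean and SD. Eef1b2 has 4 knockout points between 3789 and 3979 below 3 wild type points between 4637 and 4893, and wild type replicate 2 of Eif5a2 stands at 284 among the knockout values.

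All 10 members of the TOP class, which mTORC1 regulates at the level of translation, had a lower mean log2 level in knockout, and 9 of 10 without knockout replicates 1 and 2. Their median difference was -0.12, and all 10 had means above 1000, where 34 of 37 members were lower with a median of -0.11. The 10 were Eef1a1, Eef1b2, Eef1d, Eef1g, Eef2, Eif3a, Eif3e, Eif3f, Eif3h and Eif4b, and 2 of them, Eef1b2 and Eif3e, had an unadjusted p under 0.05. Of 11 other tested TOP RNAs, from a list without Rpl and Rps genes, 10 were lower, 5 of them at that p, with a median of -0.12. Without knockout replicates 1 and 2, 10 were lower. The list included Pabpc1, which is counted again below. Of all genes tested, 48.3% were below 0 and 4.34% were lower at that p, and of genes with a mean of at least 1000, 65.2% and 14%. Tpt1, a growth-related protein, had 7342, 7069 and 7564 normalized counts in the wild type libraries against 6301, 6567, 5890 and 5933 in the knockout libraries, without overlap, with an adjusted p of 0.312 in limma-trend, 0.0301 in DESeq2 and 0.0122 in the authors' deposited table. Npm1, a nucleolar chaperone, had 10020, 12228 and 11397 against 9658, 8859, 9084 and 9315, also without overlap, with adjusted p of 0.351 in limma-trend, 0.0406 in DESeq2 and 0.0368 in the authors' deposited table.

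Other genes that work with the members were counted from lists in the same way. A mixed list of 15 genes held poly(A)-binding proteins and their partners, Pdcd4, Ctif, Larp, nuclear cap-binding and Gigyf genes, and the helicases Ddx3x and Dhx9. All 15 were lower in knockout, against 48.3% of all genes tested and 65.2% of those with a mean of at least 1000. Without knockout replicates 1 and 2, 14 were lower. Their median was -0.14, and 4 had an unadjusted p under 0.05, against 4.34% and 14%. Pabpc1, the main cytoplasmic poly(A)-binding protein and itself a TOP mRNA, had 4292, 4126 and 4240 normalized counts in the wild type libraries against 3523, 3574, 3937 and 3434 in the knockout libraries, without overlap, and its adjusted p was 0.370 in limma-trend, 0.111 in DESeq2 and 0.0564 in the authors' deposited table. Dhx9, an RNA helicase, had 663, 718 and 796 against 633, 531, 476 and 510.2, without overlap, with adjusted p of 0.361 in limma-trend, 0.130 in DESeq2 and 0.0599 in the authors' deposited table. All 10 mitochondrial translation factors were lower, with a median of -0.20, 9 without knockout replicates 1 and 2, and none reached that p. The smallest p were those of Tsfm, the exchange factor of the mitochondrial elongation factor, with mean normalized counts of 521 ± 52.8 and 432 ± 45.0, and of Guf1, with 406 ± 70.9 and 312 ± 62.6. Of 13 genes for termination, ribosome recycling and rescue, 9 were lower and 4 higher, led by Denr and Abce1, with differences of -0.15 (SE 0.08) and -0.17 (SE 0.11). Of 8 selenocysteine genes, 6 were lower, with 1 at an unadjusted p under 0.05: Pstk, a kinase of selenocysteine tRNA synthesis, had mean normalized counts of 524 ± 59.7 and 422 ± 18.97. Sephs2, which makes the selenium donor, had 659 ± 17.6 and 579 ± 64.3. In limma-trend no gene of these lists had an adjusted p under 0.1. The lists were chosen with earlier results of these data known, so their counts are descriptions.

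The members' promoters were searched for 2 motifs on both strands, in the windows from 250 bases before to 50 bases after each gene's start that RefSeq (GRCm38.p6) gives for 47 of the 59 members. The letters CCGGAAG or CTTCCGG, the core bound by ETS factors, were in 17 of the 47 members (36.2%), against 2016 of 10802 tested genes (18.7%) and 2683 of all 27025 genes with a window (9.93%). The letters CACGTG, the E-box bound by MYC and USF factors, were in 12 of 47 (25.5%), against 11.4% and 8.09%. Both shares were higher in tested genes than in all genes with a window, and the share among highly expressed genes was not computed. The E-box and ETS letters cannot overlap each other, and a match is a description of the window and not a bound site. Windows are shown, with the motif in capitals, for those of the 10 members lower in knockout at an unadjusted p under 0.05 that held a match. For Eif2d, Eif2s2, Eif3e, Eif4ebp1 and Eif5b, also lower at that p, no match was found or no window was given. Eif2b2 and Eif5a2 are added as examples, and other members with a match, such as Eif5a with both motifs, are not shown.
Eef1b2: ctgcagttccgCCGGAAGtagccgaggcc
Eif1ax: cctcccgccccCTTCCGGacgccggaggc
Eif3g: cggccgcggcaCCGGAAGcctcttctact
Eif3m: ctgtggctgacCCGGAAGcggttgtgcgt
Eif2b2: cctctctcggcCCGGAAGtgaaacagtgc
Eif3k: tggaaggaaatCACGTGgtagacaaaaa
Eif5a2, ETS core: agctctgcacgCCGGAAGtgcactaatcc
Eif5a2, E-box: ctaatccgcagCACGTGgggttgccagg

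These windows lie at chr1:63176821-63176849 (plus strand), chrX:159371955-159371983 (plus strand), chr9:20898617-20898645 (minus strand), chr2:105017065-105017093 (minus strand), chr12:85219486-85219514 (plus strand), chr7:28981916-28981943 (minus strand), chr3:28781102-28781130 (plus strand) and chr3:28781124-28781151 (plus strand), in that order. The motifs stood in genes of both directions: Eif5a2 and Eif2ak1, both higher in knockout on average, held the ETS core as Eef1b2 did.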

How the data were processed

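The series' design text and the submitters' processing notes name GRCm38, TopHat2 2.0.9, HTSeq in intersection-strict mode and DESeq2 with a false discovery rate of 0.1. Intersection-strict counting drops reads that reach past annotated exons. The signal values that the authors deposited are normalized counts, in which every library has its own size factor. The log2 fold changes and the p-values and adjusted p-values in the table are, per the file headers, the authors' own DESeq2 results. Dividing each column by its smallest value above 0 gave whole reads for 100% of values within 0.01 read, and totals of 8903523 to 12504790 reads.

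A count test had been planned for counts only. The values were therefore tested on log2(normalized count + 1) with limma-trend (limma 3.58.1 in R 4.3.3, robust moderation). The 15029 genes averaging at least 10 entered the fit, p-values were adjusted over them by Benjamini-Hochberg, and the threshold was 0.1. Differences are on that scale, where the pseudocount shrinks ratios of low counts. They are no lower limits: for Eif5a2 the value was 0.59, against 0.50 in edgeR and 0.51 in DESeq2. edgeR 4.0.16 (quasi-likelihood, TMM) and DESeq2 1.42.0 ran on the recovered reads as alternatives. Other settings changed the pseudocount, filter, scaling, depth term and libraries used. Paralogue ratios used an exact permutation test over libraries.

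The members and gene lists were chosen with earlier results of these data known. Members described in full were the most abundant of each role by mean normalized count, both genes of each paralogue pair, the 6 smallest p in each direction and those past the threshold in the authors' table. Other lists are given by counts and their 2 smallest p. Coordinates and 3′ UTRs are from GENCODE M21.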

Additional observations from a re-analysis of the deposited data

Results flagged for a closer look

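Among the named members, 30 groups of 4 knockout libraries were examined for a library standing apart. In Eif5b, knockout replicate 1 had 1082 normalized counts, whereas the next highest knockout library had 887, a gap that made up 0.866 of the whole range of the group. Chance flags about 1 in 20 such groups.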

How the results depend on the processing

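Across 17 other settings no member passed the adjusted threshold except Eef1b2 in DESeq2, which gave 1 call (log2 difference -0.28). The count of members at an unadjusted p under 0.05, 11 with all libraries, was 7 without knockout replicates 1 and 2 and ran from 2 to 15 when single libraries were left out, with 2 without wild type replicate 3. The median log2 difference was -0.037 without knockout replicates 1 and 2 and from -0.125 to -0.058 with single libraries left out, and the count below 0 from 41 to 47. Deviations of same-numbered libraries correlated at 0.097, 0.111 and -0.011, within the range of differently numbered ones, -0.215 to 0.157. With 3 and 4 libraries centred within groups, such values cannot settle whether the replicate numbers pair the pools. With the replicate number as a block, 43 members were below 0, the median was -0.071, 10 had an unadjusted p under 0.05 and 0 were called. Replicate number 1 occurs in knockout alone, so the block takes knockout replicate 1 out of the comparison. The differences with the block therefore equal those without that library, where the median was also -0.071 and 43 members were below 0.

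Among named members 22 values changed sign. With the block these were Eif4a2 (0.042) and Eif4enif1 (0.016), the same values as without knockout replicate 1, so these changes are counted under both settings. Without knockout replicates 1 and 2 they were Eif4e2 (0.0018), Eif4enif1 (0.075), Eif4g1 (0.00083) and the ratio of Eif2ak1 to Eif2ak4 (-0.021). With single libraries left out, the lowest and highest values were -0.057 and 0.0092 for Eef2, -0.174 and 0.131 for Eif4a2, -0.058 and 0.050 for Eif4e2, -0.125 and 0.025 for Eif4enif1, -0.019 and 0.054 for Eif4g2 and -0.043 and 0.165 for Eif4g3. For log2 ratios they were -0.187 and 0.101 for Eif4a1 to Eif4a2 and -0.060 and 0.139 for Eif2ak1 to Eif2ak4. The cause was not tested. The groups of 3 and 4 libraries limit every comparison, and precise counts of members under 200 normalized counts are limited by depth.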
